A study of Mus musculus with 4 samples.

Results

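The mTORC1 pathway, represented by 10 genes, was followed in spermatogonial stem cell (SSC) cultures, 10 of the 55421 genes in the deposited table. The genes were found in the table by symbol, and every symbol matched 1 row. Mtor, Rptor and Deptor encode the kinase, its substrate-binding partner and an inhibitor bound to it. Rheb, Tsc1 and Tsc2 encode the GTPase that activates the kinase and the complex that switches that GTPase off. Rragc and Rragd encode Rag GTPases, which bring mTORC1 to the lysosome when amino acids are present. Sesn1 and Sesn3 encode sestrins, a family of proteins that can hold that step back.

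mTORC1 is a protein kinase complex that couples growth to nutrients and growth factors. Amino acids act on it through the Rag GTPases and a chain of regulators named Ragulator, GATOR1, GATOR2 and KICSTOR. Growth factors act through AKT, the TSC complex and Rheb. Active mTORC1 raises translation and restrains autophagy, and in the testis the pathway is known for its role in the balance between self-renewal and differentiation of spermatogonia.

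The cultures were primary CD1 mouse spermatogonia, established from neonatal testes and grown on irradiated mouse embryonic fibroblast (MEF) feeder cells from CF1 mice. In the Veh group they stayed in complete SSC medium with N2 supplement, bFGF and GDNF. In the NRRA group they received nutrient restriction (NR) medium, which is complete medium diluted mostly with a balanced salt solution, to which retinoic acid (RA) was added. There were 2 libraries per group. The salt solution supplies no amino acids. The labels give 10 ng/ml for each growth factor in all 4 samples, NRRA included. The media recipes of the study differ from that label, since they list more GDNF than bFGF in complete medium and prepare NR medium by diluting it, growth factors included. Because both treatments were given together, the parts of amino acids, of other medium components and of RA cannot be told apart. No allele or transgene separates the groups.

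The libraries held between 28022265 and 31604769 counts, and all 10 genes passed the filter on low counts, with at least 523 counts in a library. Stra8, an RA target, stood at 9.62 and 10.1 CPM (counts relative to the library size after TMM scaling) in Veh and at 1864 and 1853 CPM in NRRA. Germ cell markers were present, 0.185% and 0.191% of counts in Veh and 0.226% and 0.224% in NRRA over 8 genes, and 8 of 8 markers of undifferentiated spermatogonia were lower in NRRA. The 23 fibroblast markers took 1.04% and 1.03% of counts in Veh and 0.863% and 0.842% in NRRA, with 18 lower and 3 higher, and none was at or below 3 counts in every library. Of 8 Sertoli cell markers, Amh, Rhox5 and Fshr had at most 3 counts in every library, while Wt1 was counted between 178 and 233 times. Sox9, counted 735 and 874 times in Veh against 304 and 284 times in NRRA, was the 1 gene of the list that was called, at -1.59. The list summed to between 0.00342% and 0.00382% of counts in Veh and between 0.00172% and 0.00184% in NRRA. The 6 Leydig cell markers summed to at most 0.000987% and the 6 macrophage markers to at most 0.00379% of counts. RNA of germ cells and feeders was measured together, so fewer cells of a type and less RNA per cell cannot be told apart in any value below. The part of the changing cell states and of the feeder share in these values was not tested.

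NRRA changed most of these genes, in both directions. Mtor, Tsc2 and Sesn3 rose, and Rragd, Deptor, Tsc1, Sesn1 and Rptor fell (adjusted p under 0.05 in the quasi-likelihood F test of edgeR, Benjamini-Hochberg over 20232 genes). Rheb and Rragc did not pass the test. The log2 fold changes, NRRA over Veh, ran from 0.76 for Sesn3 to -2.05 for Rragd, with a median of -0.17 against 0.00 over all genes tested. Over all genes tested 56.4% were called, 27.9% higher and 28.4% lower, beside 3 of the 10 higher and 5 of the 10 lower. The 10 genes are few and were chosen with earlier results of these data known. Whether their counts differ from those shares was not tested. An at least 2-fold change was called for 13.3% of all genes, 6.29% higher and 7.02% lower, and for 1 of the 10, Rragd. In all 10 genes the CPM of both NRRA libraries lay on one side of both Veh libraries, which held for 76.7% of all genes tested.

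**Figure D1:**
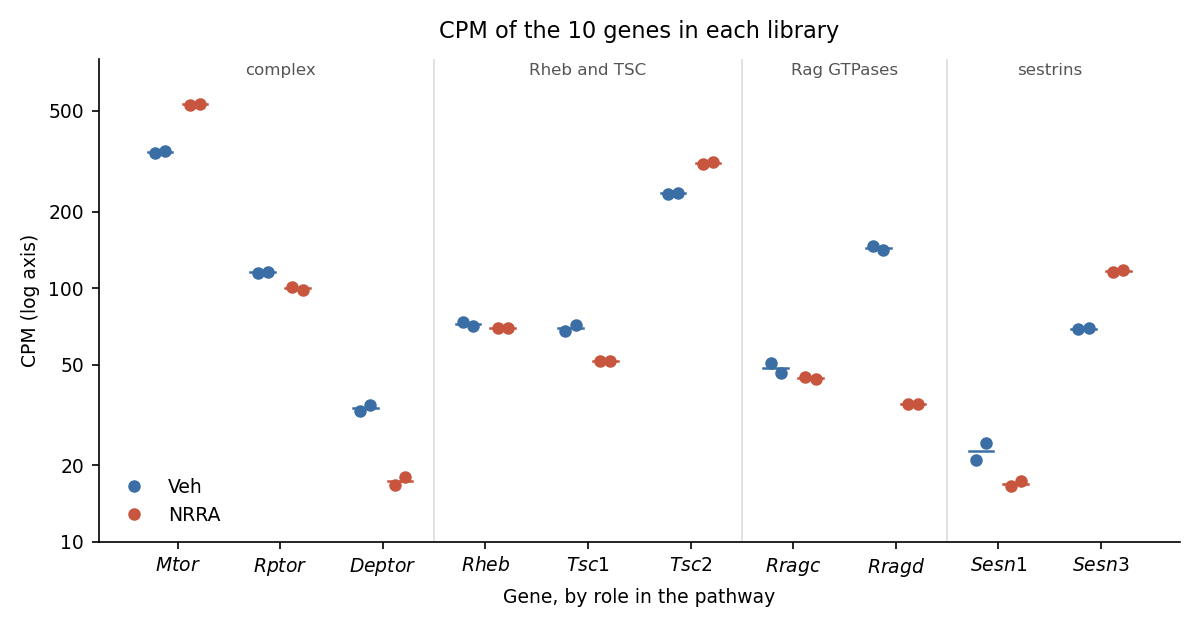
CPM of the 10 genes on a log axis, with 1 point per library (blue, Veh, n = 2; red, NRRA, n = 2) and a bar at each group's mean, ordered by role. Rragd sits at 146.9 and 142.0 CPM in Veh and near 35 CPM in NRRA, the widest gap of the plot, while the points of Rheb and Rragc lie close together.

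**Figure D2:**
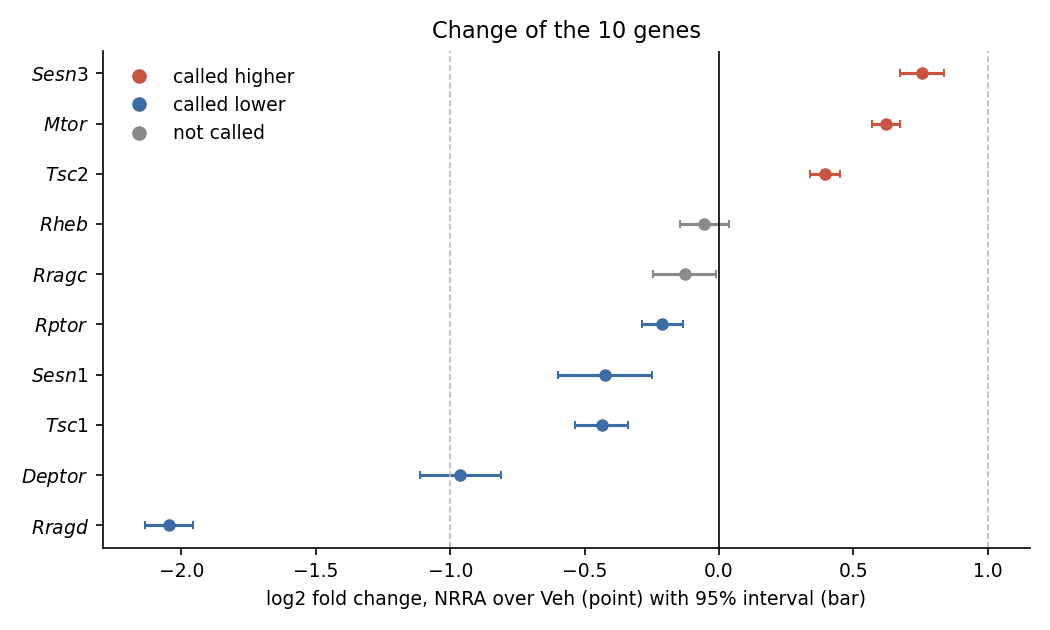
Log2 fold change of the 10 genes, NRRA over Veh, with 95% intervals from the edgeR fit (red, called higher; blue, called lower; grey, not called; dashed lines, 2-fold). Rragd lies near -2 and the interval of Deptor, from -1.11 to -0.81, spans the 2-fold line.

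The kinase subunit itself rose. Mtor (ENSMUSG00000028991, GRCm38 chromosome 4, 148448611 to 148557683, plus strand) measured 342.0 and 346.5 CPM in Veh and 527.4 and 532.5 CPM in NRRA. All NRRA values exceeded all Veh values, and the group means were 344 ± 3.17 and 530 ± 3.64 CPM (SD, n = 2 per group). The log2 fold change was 0.62 (standard error 0.025, edgeR adjusted p 2.09e-17), a 1.54-fold rise.

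Partners of the kinase did not follow it. Rptor, which encodes RAPTOR, the scaffold that presents substrates to mTOR in mTORC1 (ENSMUSG00000025583, chromosome 11, 119602905 to 119899576, plus strand), stood at 114.7 and 116.2 CPM in Veh and at 101.2 and 98.4 CPM in NRRA. The NRRA libraries were the lower ones, with a log2 fold change of -0.21 (standard error 0.037, edgeR adjusted p 2.41e-05). The call was kept with library size only, where the value shrank to -0.12 (edgeR adjusted p 0.00701). Deptor, an inhibitor that binds mTOR directly (ENSMUSG00000022419, chromosome 15, 55112317 to 55259271, plus strand), was the least abundant of the 10 per length in both groups. It fell from 32.7 and 34.8 CPM to 16.7 and 18.0 CPM, a log2 fold change of -0.96 (standard error 0.073, edgeR adjusted p 1.38e-11). Of the exonic bases of Deptor 3.41% lie opposite Gm9920, which had 22 to 57 counts in a library.

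Counts of the inhibitor per count of the kinase dropped about 3-fold, without any scaling between libraries. The Deptor to Mtor ratio of counts was 0.0956 and 0.100 in Veh and 0.0317 and 0.0338 in NRRA. RAPTOR's counterpart in the other mTOR complex, mTORC2, is Rictor, which was not called (log2 fold change 0.06, edgeR adjusted p 0.0867) but was called at 0.15 with library size only, at 0.08 with upper quartile scaling, and at 0.10 without Veh replicate 2 or without NRRA replicate 1. It was 0.03 without Veh replicate 1 or without NRRA replicate 2. The Rptor to Rictor ratio was 0.520 and 0.504 in Veh and 0.439 and 0.408 in NRRA, a smaller drop with no overlap between groups. With 2 libraries a group the exact permutation test cannot go below a two-sided p of 0.333, the value found for each of the 5 ratios computed, so the ratios are given as descriptions.

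**Figure D3:**
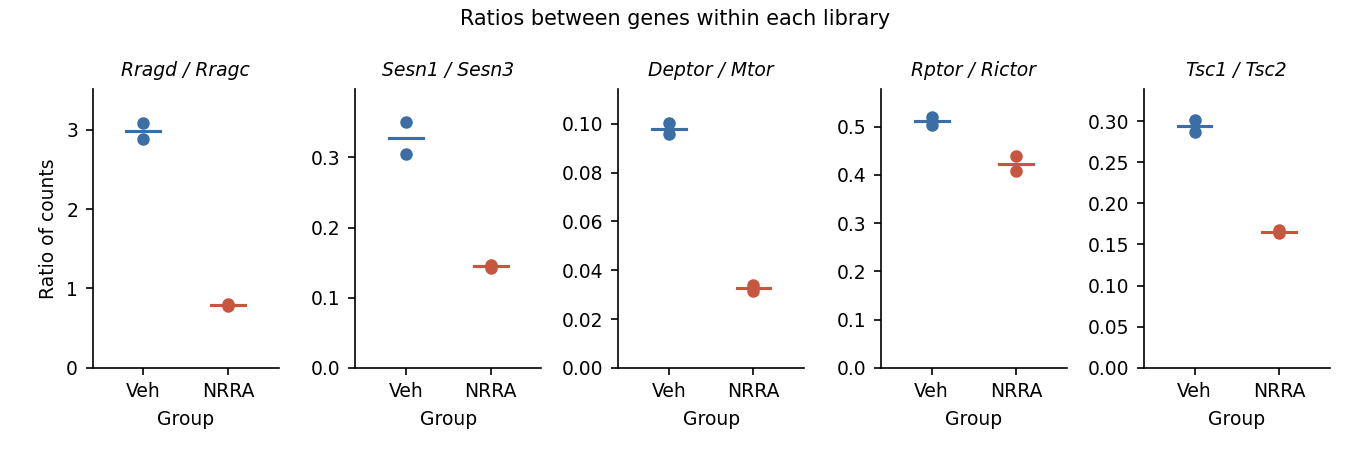
Ratio of raw counts of gene pairs within each library, 1 point per library (blue, Veh, n = 2; red, NRRA, n = 2) with a bar at the mean and each axis from 0. In all 5 panels both NRRA points lie below both Veh points, from 2.98 to 0.789 on average for Rragd to Rragc.

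On the Rheb side, the 2 subunits of the TSC complex went opposite ways. Tsc2, which encodes tuberin, the subunit that acts on Rheb (ENSMUSG00000002496, chromosome 17, 24595816 to 24632630, minus strand), measured 235.7 and 237.8 CPM in Veh and 308.5 and 314.1 CPM in NRRA. It rose by a log2 fold change of 0.39 (standard error 0.027, edgeR adjusted p 2.46e-12). Tsc1, which encodes hamartin, the stabilising subunit (ENSMUSG00000026812, chromosome 2, 28641228 to 28691167, plus strand), fell from 67.7 and 71.7 CPM to 51.6 and 51.4 CPM, a log2 fold change of -0.44 (standard error 0.048, edgeR adjusted p 1.72e-08). The Tsc1 to Tsc2 ratio of counts went from 0.287 and 0.301 in Veh to 0.167 and 0.164 in NRRA. Part of Tsc2, 7.2% of its exonic bases, lies opposite Pkd1, whose own log2 fold change was 0.10 (standard error 0.033).

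Rheb, the small GTPase that activates mTORC1 (ENSMUSG00000028945, chromosome 5, 24802823 to 24842624, minus strand), had nearly equal levels, 73.7 and 71.2 CPM in Veh and 69.9 and 69.6 CPM in NRRA. Its log2 fold change of -0.05 was not called (edgeR adjusted p 0.308), and the 95% interval ran from -0.14 to 0.04. Leaving out Veh replicate 1 gave -0.03, leaving out Veh replicate 2 gave -0.08, and with library size only the sign turned, to 0.04.

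Of the 10 genes, a Rag GTPase changed most. RagC and RagD are close relatives, and either pairs with RagA or RagB to form the dimer that docks mTORC1. Rragd (ENSMUSG00000028278, chromosome 4, 32983037 to 33022180, plus strand) measured 146.9 and 142.0 CPM in Veh and 34.9 and 35.1 CPM in NRRA. Both NRRA libraries lay far below either Veh library, and the log2 fold change of -2.05 (standard error 0.043, edgeR adjusted p 2.98e-23) was a 4.13-fold fall. It ranked 477 from the lowest among the log2 fold changes of the 20232 genes tested.

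Rragc (ENSMUSG00000028646, chromosome 4, 123917446 to 123936997, plus strand) differed far less. It measured 50.9 and 46.1 CPM in Veh and 44.8 and 44.0 CPM in NRRA. The log2 fold change of -0.13 (standard error 0.057) was not called (edgeR adjusted p 0.058), and its 95% interval ran from -0.24 to -0.01. The call depends on the setting, since the value was -0.20 (edgeR adjusted p 0.00651) without Veh replicate 2 and -0.06 (edgeR adjusted p 0.503) without Veh replicate 1. With library size only it was -0.04. Of the exonic bases of Rragc 7.9% lie opposite 4930535I16Rik.

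The balance between these relatives inverted. For each count of Rragc there were 2.89 and 3.08 counts of Rragd in Veh, against 0.779 and 0.798 in NRRA. Per length, on the RPKM scale (CPM per kilobase of exon), the levels of Rragd and Rragc were 27.9 and 14.5 in Veh and 6.76 and 13.3 in NRRA. Rragd was thus the more abundant of the pair in Veh and the less abundant in NRRA, also when lengths were taken from the longest transcript.

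Their partners RagA and RagB differed as well. Rraga, the more abundant at 54.1 RPKM in Veh and 53.0 RPKM in NRRA, was not called (log2 fold change -0.03, 95% interval -0.12 to 0.06), and its sign was positive with library size only and without Veh replicate 2 (0.06 and 0.03). Leaving out Veh replicate 1 gave -0.09, and leaving out NRRA replicate 1 or 2 gave -0.01 or -0.05. Rragb was scarce, counted 105 and 111 times in Veh against 212 and 186 times in NRRA, and rose by 0.74 (standard error 0.15, edgeR adjusted p 1.44e-04).

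The sequences before the transcription start were compared for the pair of Rag relatives and for the 2 genes that rose most, because the first pair diverged and the second moved together. RefSeq windows (GRCm38.p6) were found for 9 of the 10 genes, and the 250 bases before the start were searched on both strands. Capitals mark the E-box CACGTG, the core motif bound by TFEB, TFE3 and Myc proteins. The windows are shown 5′ to 3′ on the plus strand, which is the strand of each of the 4 genes.
Rragc, chr4:123917183-123917432: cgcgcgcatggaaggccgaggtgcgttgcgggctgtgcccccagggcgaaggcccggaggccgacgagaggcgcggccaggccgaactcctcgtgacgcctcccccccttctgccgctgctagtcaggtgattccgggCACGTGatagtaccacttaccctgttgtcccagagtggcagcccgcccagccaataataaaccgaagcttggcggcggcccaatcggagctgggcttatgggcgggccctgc
Rragd, chr4:32982748-32982997: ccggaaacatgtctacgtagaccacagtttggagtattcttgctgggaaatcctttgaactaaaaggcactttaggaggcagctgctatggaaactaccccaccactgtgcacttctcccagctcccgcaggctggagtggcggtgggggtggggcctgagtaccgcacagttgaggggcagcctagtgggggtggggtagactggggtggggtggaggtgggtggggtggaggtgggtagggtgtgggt
Mtor, chr4:148448332-148448581: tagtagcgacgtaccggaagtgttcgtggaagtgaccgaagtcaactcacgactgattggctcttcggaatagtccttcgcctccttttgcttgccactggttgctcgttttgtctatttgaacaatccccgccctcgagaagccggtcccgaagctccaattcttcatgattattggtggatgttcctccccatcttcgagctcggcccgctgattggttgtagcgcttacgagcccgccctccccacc
Sesn3, chr9:14276051-14276300: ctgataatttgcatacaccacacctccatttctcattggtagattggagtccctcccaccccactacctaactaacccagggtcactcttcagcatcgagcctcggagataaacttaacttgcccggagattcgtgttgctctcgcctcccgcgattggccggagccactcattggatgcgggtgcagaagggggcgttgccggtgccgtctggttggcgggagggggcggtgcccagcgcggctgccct

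In these windows the E-box was found for Rragc and for Rheb, and for none of the 8 windows of the other genes (Sesn1 has a pair of starts). Of all 32851 windows of this length 6.02% hold it. The forkhead motif GTAAACA was in none of the 10 windows, against 3.17% of all, and a perfect retinoic acid direct repeat (DR5) was in none either, against 0.00913% of all. The amino acid response motif TGATGNAAN was also in none, against 3.44% of all. Of the Rragc window 87 bases are exonic in the long noncoding gene Gm12905, while the other 3 windows shown hold no annotated exon. All 250 bases of the Rheb window, its E-box included, are exonic in Rheb itself as GENCODE draws the gene. Exonic too are 250 bases of a Sesn1 window, 201 of the Tsc2 window and 5 of the Tsc1 window. The RefSeq start of Sesn3 lies inside the gene as GENCODE draws it. A match of letters is a description and not a binding site, and no match says only that the letters are not in this window.

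The sestrins diverged too. Sesn3 (ENSMUSG00000032009, chromosome 9, 14275067 to 14333101, plus strand) had the highest log2 fold change of the 10. It measured 68.8 and 69.7 CPM in Veh and 115.8 and 118.3 CPM in NRRA, a log2 fold change of 0.76 (standard error 0.039, edgeR adjusted p 6.53e-15), or 1.69-fold. Sesn1 (ENSMUSG00000038332, chromosome 10, 41809935 to 41908424, plus strand) measured 20.9 and 24.5 CPM in Veh and 16.6 and 17.4 CPM in NRRA. It fell by 0.42 on the log2 scale (standard error 0.085, edgeR adjusted p 1.17e-04), and its Veh libraries lay further apart than those of any other of the 10 genes relative to their mean. Leaving out Veh replicate 1 gave -0.53 and leaving out Veh replicate 2 gave -0.31, past the threshold in both.

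Counts of Sesn1 per count of Sesn3 were 0.304 and 0.351 in Veh and 0.143 and 0.147 in NRRA. Sesn2, the family member best known as a leucine sensor and a target of the amino acid response factor ATF4, was not called (log2 fold change -0.05, 95% interval -0.14 to 0.04; 0.04 with library size only). Leaving out Veh replicate 2 or NRRA replicate 1 gave -0.10, and leaving out Veh replicate 1 (-0.0058) or NRRA replicate 2 (-0.004) left almost no difference, with no call in any. Per length it was the most abundant of the 3, at 28.1 RPKM in Veh and 27.01 RPKM in NRRA, against 7.67 RPKM for Sesn3 in NRRA. In Veh the order of Sesn1 and Sesn3 depends on the length used, being 5.70 and 4.54 RPKM over all exons and 5.96 and 7.59 RPKM over the longest transcript.

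Across the 10 genes, levels per length spanned from 34.1 RPKM for Mtor to 3.80 RPKM for Deptor in Veh, and from 52.4 to 1.95 RPKM for the same 2 genes in NRRA. The order in Veh was Mtor, Rragd, Tsc2, Rragc, Rheb, Rptor, Tsc1, Sesn1, Sesn3 and Deptor. In NRRA it was Mtor, Tsc2, Rragc, Rheb, Sesn3, Rptor, Rragd, Tsc1, Sesn1 and Deptor. Only Tsc1 and Sesn1 were neighbours whose libraries overlapped, and they did so in both groups. Against all genes tested, Rragd moved from above 89.1% of genes in Veh to above 61.5% in NRRA, and Sesn3 from above 53.1% to above 64.2%. Part of the order depends on the length used. Over the longest transcript in Veh, Tsc2 came before Rragd and Sesn3 before Sesn1, and Rragc ranked 6 in place of 4. In NRRA, Rheb ranked 3 in place of 4, Rptor 4 in place of 6, Rragc 5 in place of 3 and Sesn3 6 in place of 5.

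**Figure D4:**
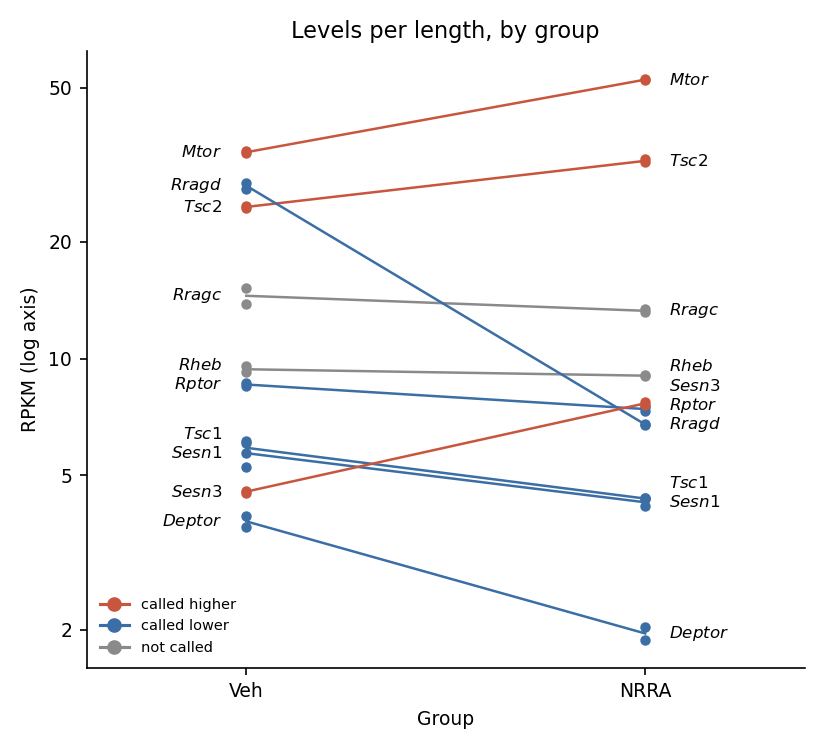
Levels of the 10 genes per length, as RPKM on a log axis, in Veh and NRRA, with 1 point per library (n = 2 per group) and lines joining the group means (red, called higher; blue, called lower; grey, not called). Rragd drops from 27.9 to 6.76 RPKM and crosses 5 other genes, while Sesn3 climbs from 4.54 to 7.67 RPKM.

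The genes most like Sesn3 in log2 CPM over the 4 libraries, by Euclidean distance, were Lyst, Dip2a and Phlpp2 (0.10, 0.11 and 0.15). Those most like Rragd were Pmaip1, Fam234b and Ddr1 (0.14, 0.26 and 0.28). With 2 groups of 2 libraries this likeness reflects an equal level and an equal change, and nothing more.

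Other genes of the pathway were taken from 7 lists of 72 genes, all tested. Of these, 19 were higher and 31 lower, against 27.9% and 28.4% of all genes tested. With library size only 27 were higher and 25 lower. The same shares of all genes hold beside the counts of each list below, and no list was tested against them. None of the 72 had a called change of 2-fold or more, and their median log2 fold change was -0.07. The list that holds Rraga and Rragb, Ragulator, the lysosomal scaffold, and folliculin, which acts on RagC and RagD together with FNIP proteins, had 3 of 11 higher and 2 lower. Rragb was 1 of the 3. Fnip1 and Fnip2 rose together, by 0.85 (standard error 0.051) and 0.70 (standard error 0.032). Fnip1 stood at 38.6 and 41.0 CPM in Veh and 73.1 and 70.0 CPM in NRRA. Lamtor4, a Ragulator subunit, was the lowest of the list at -0.60.

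Of 11 subunits of GATOR1, GATOR2 and KICSTOR, 5 were higher and 2 lower, from 0.51 for Kptn, a KICSTOR subunit, to -0.23 (-0.14 with library size only) for Sec13, which GATOR2 shares with the nuclear pore and the COPII coat. The median was 0.14, and 1 in place of 2 was lower without Veh replicate 2 or without either NRRA library. Of the other 5 amino acid sensor genes, 1 was higher and 2 lower. The arginine sensor gene Castor1 was the lowest at -0.51 (standard error 0.076) and its relative Castor2 the highest at 0.46 (standard error 0.045), opposite directions as in the sestrins.

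Among 9 other subunits and assembly factors of mTORC1 and mTORC2, 1 was higher and 5 lower, with 2 higher without Veh replicate 2 or without NRRA replicate 1. The shared subunit Mlst8 fell by 0.28 on the log2 scale, an uncertain value because 22.5% of its exonic bases lie opposite Bricd5, and the mTORC1 inhibitor gene Akt1s1 had a log2 fold change of -0.19, not called with library size only (-0.10, edgeR adjusted p 0.0811). Extremes of the list were both mTORC2 subunits, Mapkap1 at 0.19 and Prr5 at -0.85. Mtor, at 0.62, lay above every one of the 9. On the AKT, TSC and Rheb side 4 of 12 were higher and 5 lower, from 0.67 for Pdpk1, the kinase that activates AKT, to -0.90 for Ddit4, which encodes REDD1, a stress-induced inhibitor of mTORC1.

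Of 15 genes of mTORC1 targets, 8 were lower and 4 higher, against 28.4% and 27.9% of all genes tested, and the median was -0.18. Larp1, which encodes a repressor of ribosomal protein mRNA translation, was the lowest, falling from 559.7 and 562.7 CPM to 316.9 and 333.0 CPM, a log2 fold change of -0.79 (standard error 0.026). The highest value, 0.61 for Eif4ebp3, rests on 9 to 17 counts in a library, with 67.3% of its exonic bases shared on the same strand with AC115631.1, and was not called (edgeR adjusted p 0.32). The measured values are transcript levels of target genes, and the phosphorylation by which mTORC1 acts on the proteins cannot be read from them.

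Transcription factors known to act on these genes in other cells were mostly lower. Of 9, 7 were lower and 1 higher, against 28.4% and 27.9% of all genes tested, and the median was -0.33. Tfeb and Tfe3, lysosomal regulators, fell by 0.69 (standard error 0.094) and 0.33 (standard error 0.046) on the log2 scale. Foxo1, Foxo3, Foxo4, Trp53 and Atf4 were lower too, at -0.23, -0.30, -0.32, -0.38 and -0.60. Mitf, a relative of Tfeb and Tfe3, was the one that rose, by 0.53, at 6.60 and 6.05 CPM in Veh and 9.0 and 9.3 CPM in NRRA. Tfec had 13 to 27 counts in a library and was not called (-0.80, edgeR adjusted p 0.0985), at -0.44 without NRRA replicate 1 and -1.24 without NRRA replicate 2. Whether any of these factors has a part in the changes of the 10 genes was not tested.

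**Figure D5:**
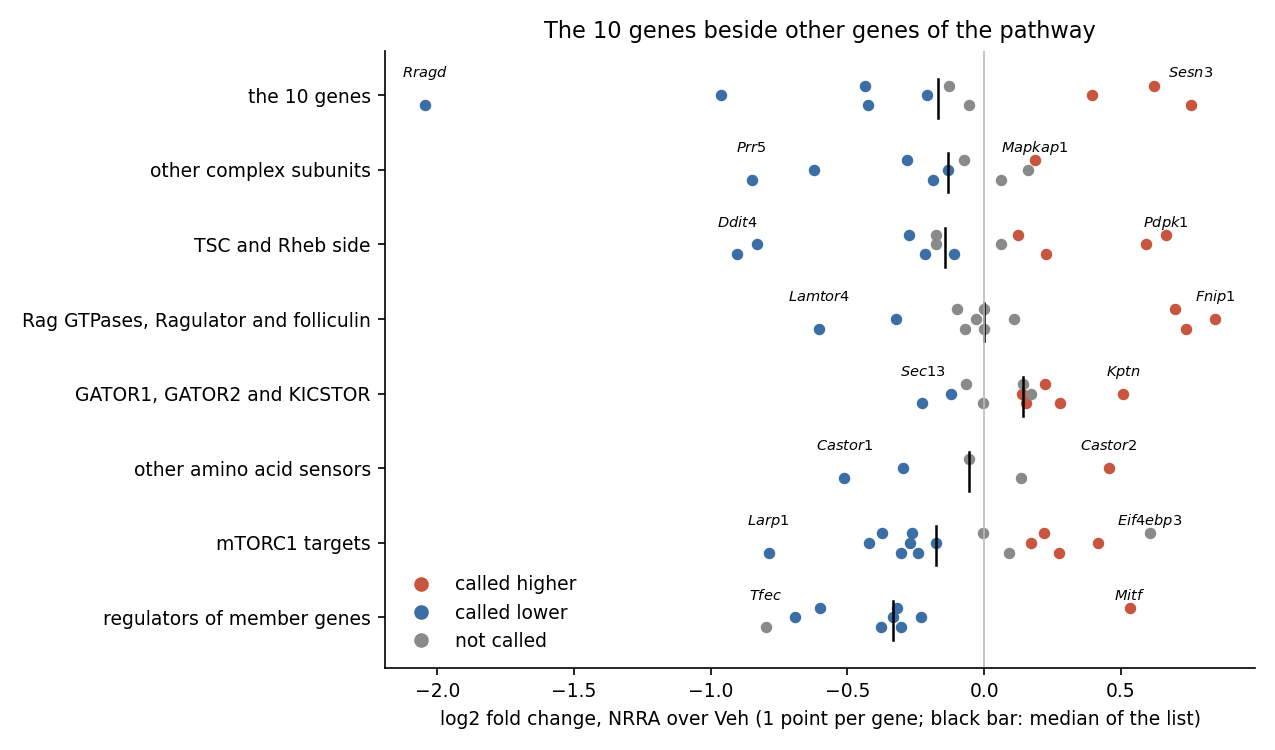
Log2 fold change, NRRA over Veh, of the 10 genes and of 72 other genes of the pathway in 7 lists, 1 point per gene (red, called higher; blue, called lower; grey, not called), with a black bar at each list's median and labels on the highest and lowest gene. Rragd, at -2.05, lies outside the range of every other gene shown, where the next values are -0.96 for Deptor and -0.90 for Ddit4.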

How the data were processed

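Poly(A) RNA was sequenced in 2 Veh and 2 NRRA libraries. The authors deposited raw counts for the 4 libraries in 1 table, with 55421 genes and no entry without a gene identifier. The submitters' processing notes name STAR 2.6.1c, featureCounts 1.6.4 and the mm10 build, without saying which role each had. The study describes a stranded oligo-dT preparation from Tecan, whereas the labels name an Illumina TruSeq kit and a NuGEN preparation. The annotation release and the strand setting of the counting are not given in the sources used here, so reads of genes on opposite strands may be shared. Columns were matched to samples by the sample descriptions, whose Veh numbers are one above those of the titles.

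Counts were filtered with filterByExpr, scaled by TMM (factors of 0.969 and 0.97 for Veh, 1.03 for either NRRA library) and tested with the quasi-likelihood F test of edgeR 4.0.16 in R 4.3.3 with robust estimation, and adjusted p-values (20232 genes) were called under 0.05. SE was derived from the F statistic, and the 95% intervals from SE and the total degrees of freedom. Likeness used log2 CPM with a prior count of 2. DESeq2 1.42.0 was an alternative. The fits were tested before use on simulated counts with 200 changed genes, balanced in direction, and an equal dispersion for every gene. That simulation does not cover scaling where as many genes change as were called here, nor dispersions that differ between genes. Coordinates and exon lengths came from GENCODE M21 (GRCm38), which held 99.7% of the identifiers, and opposite-strand overlap was read from it. Near-identical sequence (BLAST 2.17.0, 100 bases or more at 95% identity or more) in other genes covered 2.52% of the longest Rheb transcript, 4.93% of that of Deptor, 9.05% of that of Rragc and 11.1% of that of Tsc2, where for Rragc and Tsc2, and in part for Deptor, the matching gene is the one that overlaps the same locus, and none of the other 6.

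The 10 genes and the lists were chosen with earlier results of these data known. Named beside the 10 are the highest and lowest gene of each list, Stra8, and the 3 genes most like the top and bottom gene. Amh, Rhox5, Fshr, Wt1 and Sox9 come from the Sertoli cell marker list and were singled out by their counts or call. Genes that overlap a named gene are given with it. Rraga, Rragb, Sesn2, Fnip2, Mlst8, Akt1s1, Rictor, Tfeb and Tfe3 were added after their values were seen. So were Foxo1, Foxo3, Foxo4, Trp53 and Atf4, the other called genes of their list. The study describes its sequencing replicates as independent biological ones, while the labels do not tie a library to a culture, and p-values measure the spread between these 2 libraries a group. Libraries of a group differed by more than counting noise (chi-square per gene 2.45 in Veh and 1.99 in NRRA over genes with at least 50 counts) and were counted separately.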

Additional observations from a re-analysis of the deposited data

How the results depend on the processing

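The 12 alternatives were other scalings, filters and tools, a replicate block, and leaving out each library in turn, where the lone library of a group is assumed to vary like the pair of the other group. Of the values that these gave for the 10 genes, 117 changed neither sign nor call, 1 changed sign and 2 gained a call. The number called higher was 3 throughout, and the number called lower was 5 or 6 when a library was left out. With library size only, Rheb turned from -0.054 to 0.035 (edgeR adjusted p 0.517), Rraga to 0.0595 and Sesn2 to 0.036, and with upper quartile scaling the 3 were -0.035, -0.01 and -0.034. Without 1 library Rraga ran from -0.087 to 0.029 and Rragc from -0.20, with a call, to -0.056. The cause was not tested. Over all genes, 4996 to 5266 were higher and 5093 to 5352 lower without 1 library, and 4252 higher and 4314 lower with DESeq2. Scaling by library size alone put 60.3% of calls on the higher side in place of 49.6%, and moved the median of all genes by 0.09.

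Counts in short lists moved by over 1.5 times. For GATOR1, GATOR2 and KICSTOR, 1 gene was lower with library size only, upper quartile scaling and DESeq2, and 1 or 2 without 1 library. Of the other complex subunits, 2 were higher with library size only and upper quartile scaling, 1 or 2 without 1 library, and 3 lower with library size only. Of the TSC and Rheb side 3 were lower with library size only and with DESeq2, and of the other amino acid sensors 2 were higher with library size only. The titles number the libraries of both groups alike, but nothing ties equal numbers to a shared culture, and same-numbered libraries did not deviate together (r = -0.0106 across genes). With the replicate block, 5772 genes were higher and 5836 lower, and Rragc passed the threshold (-0.13, edgeR adjusted p 0.0386). Counts of 9 to 27, as for Eif4ebp3 and Tfec, limit those values.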
